A study of Danio rerio with 6 samples.

Results

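Lipoproteins are the particles in which the gut, the liver and the larval yolk export fat, and the 10 genes described here encode proteins that build them or ride on them. They are apoa1a, apoa1b, apoa2, apoa4a, apoa4b.1, apobb.1, apoea, apoeb, apoc1 and mttp, taken by name from a deposited table of 15419 zebrafish (Danio rerio) genes, and all 10 were found there. The samples were dissected guts of wild-type larvae labelled 5 days post-fertilization. In 3 libraries, labelled cut_wt and called transected here, the gut had been severed across its full width 24 h earlier. The other 3 libraries, labelled wt, carry no mention of a cut and are called uncut. Each library pooled 10 to 15 guts, so larvae within a library cannot be told apart, and all 6 libraries are of the same wild-type genotype.

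A lipoprotein that carries triglyceride is built on 1 molecule of apolipoprotein B, onto which the microsomal triglyceride transfer protein, the product of mttp, loads lipid in the endoplasmic reticulum. Enterocytes use this route to export dietary fat, hepatocytes use it for fat of the liver, and in zebrafish embryos the yolk syncytial layer uses it to deliver yolk fat. Apolipoproteins A-I and A-II are the main proteins of high-density lipoprotein, whereas A-IV, E and the C proteins move between particles. The comparison of transected with uncut guts asks how the transcripts of this export route stood 1 day after the organ was cut.

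Total counts were 21525093 to 25131242 in transected and 21835608 to 23624582 in uncut libraries. Values below are CPM, which are counts divided by a library's total after TMM scaling for composition, unless raw counts are named. They are not divided by transcript length, so they compare libraries for a gene and not genes with each other. The tissue held more than intestine: summed markers of the exocrine pancreas were 59287 to 122193 CPM in transected and 31452 to 106992 CPM in uncut libraries. Enterocyte markers summed to 26154 to 34570 CPM in transected and 27888 to 36296 CPM in uncut libraries, led by chia.2, although the enterocyte gene fabp2 had only 3 to 11 counts per library. Transcripts of the vitellogenin genes, which encode yolk proteins, summed to 0.819 to 1.19 CPM in transected and 0.407 to 1.21 CPM in uncut libraries. Of the 7 found, 4 were at 0 in every library. These genes are not markers of the yolk syncytial layer, so the part of that layer in the tissue was not tested. Hepatocyte markers were present in every library, with 16 of the 18 found passing the filter on low counts and 2, serpinc1 and hp, below it. Epidermal markers summed to 1636 to 2795 CPM in transected and 1219 to 1596 CPM in uncut libraries, and skeletal muscle markers to 1975 to 5008 CPM in transected and 539 to 7275 CPM in uncut libraries. In bulk tissue, fewer cells of a type and less RNA per cell cannot be told apart.

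None of the 10 genes changed by the test, and most were lower in transected guts by a margin within the spread between libraries. All 10 passed the filter on low counts, 8 had a negative log2 fold change and 2 a positive one, with a median of -0.27, against 49.5% negative and a median of 0.00 over the 11466 genes tested. At an edgeR adjusted p under 0.05, 0 of the 10 passed in either direction, against 0.0174% of all genes tested (2 genes). At an unadjusted p under 0.05 there were 0 of the 10 in edgeR, where 3.55% of all genes were lower at that level, 2 in DESeq2, where 4.13% of all genes were lower at that level, and 1 in limma-voom, where 3.57% were. These were all lower in transected guts, and 0 were past the adjusted threshold in DESeq2 or limma-voom. Together the 10 genes took 3.44%, 3.35% and 3.18% of all counts in transected libraries 1, 2 and 3, against 5.74%, 3.27% and 4.01% in uncut libraries 1, 2 and 3. Uncut library 1 stood far above the rest, and the lowest uncut value lay inside the transected range. The share averaged 3.32 ± 0.136% in transected and 4.34 ± 1.27% in uncut libraries (SD, n = 3 each).

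**Figure D1:**
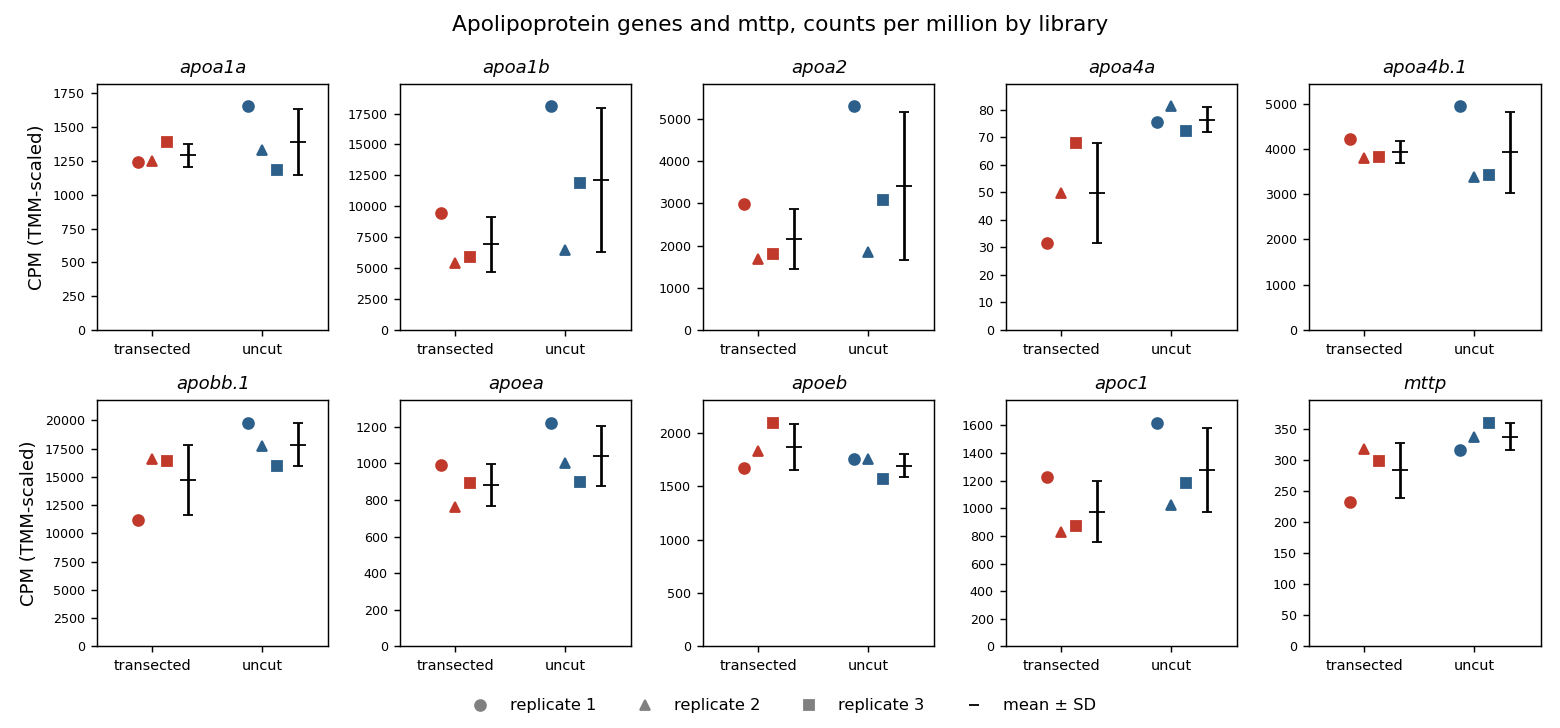
CPM (y axis, linear from 0, TMM-scaled) of each of the 10 genes in the 3 transected libraries (red, left) and the 3 uncut libraries (blue, right), with symbols for the replicate number and the mean ± SD beside the points. The groups overlap in 9 of the 10 panels, and only for apoa4a do all transected libraries (31.4 to 68.0 CPM) lie below all uncut ones (72.4 to 81.3 CPM).

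The structural gene of triglyceride-rich particles, apobb.1, drew a large share of the counts, at rank 5 of 15419 by mean CPM, a rank that reflects transcript length as well as level. It stood at 11168, 16611 and 16406 CPM in transected libraries 1, 2 and 3, against 19798, 17736 and 15994 CPM in uncut libraries 1, 2 and 3. Transected library 1 was low and the other 5 libraries lay close together, so that the groups overlapped. The log2 fold change was -0.28 (SE 0.19, edgeR adjusted p = 0.797), with a 95% interval of -0.74 to 0.19. It was -0.12 without transected library 1, -0.43 without both replicate 3 libraries, and -0.04 without both replicate 1 libraries (edgeR adjusted p = 0.895).

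mttp, whose product loads lipid onto apolipoprotein B, stood at 233, 318 and 299 CPM in transected guts, against 316, 337 and 360.2 CPM in uncut guts. Here too transected library 1 was the lowest, and transected library 2 reached just above the lowest uncut library. The log2 fold change was -0.25 (SE 0.15, edgeR adjusted p = 0.756), with a 95% interval of -0.61 to 0.10. Across the 20 alternative fits it lay between -0.35 and -0.14, with -0.14 reached without transected library 1. The profiles of mttp and apobb.1 over the 6 libraries differed by a root mean square of 0.15 on the log2 scale, closer than either was to any other of the 10 genes.

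The high-density lipoprotein genes apoa1b and apoa2 had the widest spread between libraries. apoa1b, a copy of the apolipoprotein A-I gene, stood at 9489, 5404 and 5889 CPM in transected libraries 1, 2 and 3, against 18111, 6477 and 11898 CPM in uncut libraries 1, 2 and 3. The replicate 1 library was the highest of its group on both sides, and the highest library was 3.35 times the lowest. The means were 6927 ± 2232 CPM in transected and 12162 ± 5822 CPM in uncut guts (SD, n = 3 each), a log2 fold change of -0.81 (SE 0.41, edgeR adjusted p = 0.717). The 95% interval ran from -1.79 to 0.17, so that neither a loss to 0.289 of the uncut level nor equality lies outside it. Without uncut library 1 the log2 fold change was -0.41, and without transected library 1 or uncut library 2 it was -1.12 or -1.11.

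apoa2, which encodes apolipoprotein A-II, followed the same pattern, at 2983, 1691 and 1802 CPM in transected guts against 5311, 1844 and 3085 CPM in uncut guts. Its log2 fold change was -0.66 (SE 0.42, edgeR adjusted p = 0.776, 95% interval -1.67 to 0.35). It was -0.19 without uncut library 1, -0.97 without transected library 1 and -0.96 without uncut library 2. The other copy of the A-I gene, apoa1a, was much steadier. It had 1239.5, 1247 and 1389 CPM in transected guts, against 1657, 1328 and 1186 CPM in uncut guts, with a log2 fold change of -0.11 (SE 0.16, edgeR adjusted p = 0.926). Without uncut library 1 the sign of apoa1a turned, to 0.04, and without transected library 3 or uncut library 3 its log2 fold change was -0.16 or -0.21.

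apoa4a, an apolipoprotein A-IV gene, was the member with the clearest separation. It had 818, 1106 and 1577 raw counts in transected guts and 1866, 1749 and 1599 in uncut guts, or 31.4, 49.9 and 68.0 CPM in transected and 75.5, 81.3 and 72.4 CPM in uncut libraries. Every transected library lay below every uncut one, which held for 6.38% of all genes tested. The coefficient of variation was 36.7% among the transected and 5.95% among the uncut libraries. The log2 fold change was -0.62 (SE 0.27, edgeR adjusted p = 0.657), with a 95% interval of -1.26 to 0.02, and it lay between -0.95 and -0.38 in the 20 alternative fits. The first of these left out both replicate 3 libraries, the second transected library 1, and without both replicate 1 libraries it was -0.39.

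The related gene apoa4b.1 did not share this pattern. It stood at 4222, 3792 and 3813 CPM in transected libraries, against 4950.5, 3390 and 3435 CPM in uncut libraries. The lowest and the highest value of the 6 were both from uncut guts. The log2 fold change was 0.01 (SE 0.18, edgeR adjusted p = 0.998), and the 95% interval of -0.43 to 0.44 leaves room for a change of about that size either way. Its sign turned in 7 of the 20 alternative fits.

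Apolipoprotein E is the ligand by which particles bind receptors of the low-density lipoprotein (LDL) receptor family. apoeb had the highest mean in transected guts relative to uncut ones of the 10 genes, at 1672, 1829 and 2099 CPM in transected and 1761, 1753 and 1573 CPM in uncut libraries. Its groups overlapped, with a log2 fold change of 0.14 (SE 0.13, edgeR adjusted p = 0.870, 95% interval -0.18 to 0.46). It was 0.05 without transected library 3, 0.09 without uncut library 3 and 0.23 without both replicate 1 libraries, and its sign turned without both replicate 3 libraries. Macrophages also express apoeb in zebrafish. Macrophage markers summed to 264 to 307 CPM in transected and 167 to 229 CPM in uncut libraries, with 4 of the 9 tested called higher by DESeq2, against 0.846% of all genes, and 0 by edgeR, and with 8 of the 9 higher in every transected library than in any uncut one, against 7.48% of all genes tested, and c1qa, c1qb, c1qc and mpeg1.1 at 0 in every library. The part of these cells in the apoeb level was not tested.

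apoea, the other E gene, stood at 988, 763 and 894 CPM in transected and 1223, 999.6 and 899 CPM in uncut guts. Its log2 fold change was -0.24 (SE 0.16, edgeR adjusted p = 0.797, 95% interval -0.63 to 0.16), and -0.11 without uncut library 1 or -0.14 without transected library 2. apoc1, whose product in mammals slows the removal of remnant particles, had 1226, 825 and 875 CPM in transected guts, against 1620.2, 1027 and 1184 CPM in uncut guts. Again the replicate 1 libraries were the highest of each group, and the log2 fold change was -0.39 (SE 0.23, edgeR adjusted p = 0.761, 95% interval -0.94 to 0.17). It was -0.18 without uncut library 1 and -0.60 without transected library 1.

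The libraries of both groups carry the numbers 1 to 3. Over all genes, libraries of the same number deviated together for numbers 1 and 2 (Pearson's r of 0.450 and 0.512) and only weakly for number 3 (0.177). The values were therefore also read within pairs, of which pair 3 is the least supported by these correlations. By the titles it is pair 1, whose libraries share no second number, unlike those of pairs 2 and 3. Within every pair, 6 of the 10 genes were lower in the transected library, against 17.0% of all genes tested, and 0 were higher in every pair, against 20.1%. These were apoa1b, apoa2, apoa4a, apoea, apoc1 and mttp. Genes lower in every pair also made up 36%, 50% and 50% of the assembly and secretion, fatty acid uptake, and receptor and remodelling lists described below. They were 27.3% of the other genes with apolipoprotein names and 24% of the regulators. apoc1 had the most even ratios, at 0.757, 0.803 and 0.739 of the uncut library in pairs 1, 2 and 3. For apoa1b they were 0.524, 0.834 and 0.495, and for apoa4a 0.416, 0.613 and 0.939, so that the size of the difference was uneven even where its direction was shared. With the replicate number as a block, 0 of the 10 passed an edgeR adjusted p of 0.05, against 0.0349% of all genes tested, and 4 (apoa1b, apoa2, apoa4a and apoc1) were lower at an unadjusted p under 0.05, against 6.11% of all genes lower at that level. The lowest edgeR adjusted p in that fit was 0.262, for apoc1.

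**Figure D2:**
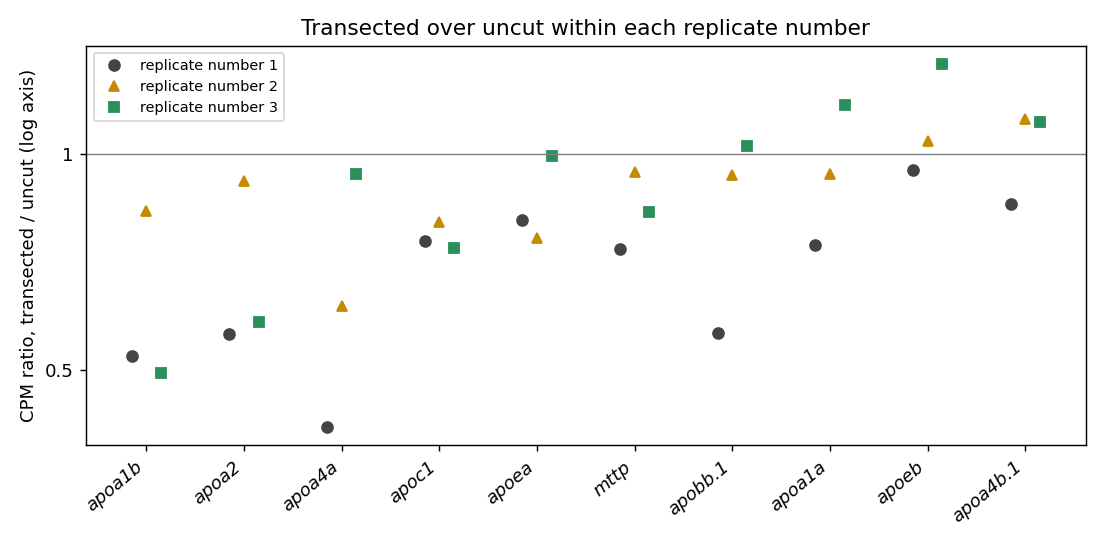
Ratio of CPM in the transected library to CPM in the uncut library of the same replicate number (y axis, log scale) for each of the 10 genes, with a symbol for each of the 3 numbers. The line marks a ratio of 1: the 6 genes on the left lie below it in all 3 pairs, with ratios of 0.416 to 0.994, while apoeb reaches 1.33 in pair 3.

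Gene copies within the family were compared by their ratio in each library, which does not depend on scaling. How reads that match both copies were counted is not given in the sources used here, so the ratios hold only as far as the counting kept the copies apart. The raw counts of apoa1a were 0.131, 0.231 and 0.236 of those of apoa1b in transected libraries 1, 2 and 3, against 0.0915, 0.205 and 0.0997 in uncut libraries. The ratio was higher in the transected library of every pair, by a mean log2 difference of 0.64, while the groups overlapped (exact two-sided permutation p = 0.2, adjusted over the 3 ratios 0.3, n = 3 each). For apoea over apoeb the ratios were 0.591, 0.417 and 0.426 in transected and 0.694, 0.570 and 0.572 in uncut libraries. All 3 pairs were lower in the transected library, with a mean log2 difference of -0.37 (exact two-sided permutation p = 0.3, adjusted 0.3, n = 3 each). apoa4a over apoa4b.1 gave 0.00744, 0.0132 and 0.0178 in transected and 0.0152, 0.0240 and 0.0211 in uncut libraries. The mean log2 difference was -0.71 (exact two-sided permutation p = 0.2, adjusted 0.3, n = 3 each). With 3 libraries a group the smallest p such a test can give is 0.1, so none of these could have passed 0.05.

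**Figure D3:**
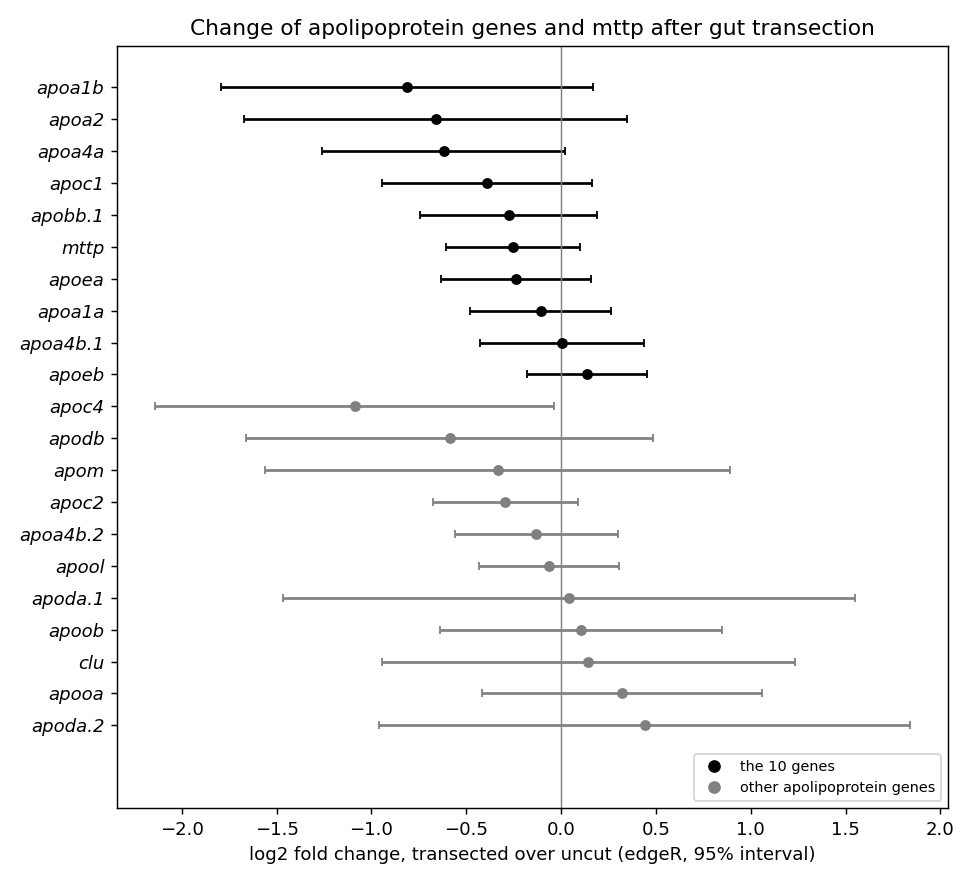
Log2 fold change, transected over uncut, with its 95% interval from the edgeR fit (x axis), for the 10 genes (black) and the 11 other genes with apolipoprotein names tested (grey). All 10 intervals of the black points include 0, from apoa1b at -0.81 to apoeb at 0.14. apoc4, a grey point, has the lowest value at -1.09, and its interval of -2.14 to -0.04 lies below 0 (edgeR adjusted p = 0.626).

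Seen over the 6 libraries, the 10 genes did not form a single pattern. Likeness was measured as the root mean square difference between 2 genes' log2 CPM after each gene's own mean was taken off, a description over 6 libraries that share their depth and handling. apoa1b and apoa2 differed by 0.10 from each other, and by 0.09 and 0.11 from the median profile of the 16 hepatocyte markers tested. apoc1 came next, at 0.30 from that profile, and the other 7 genes lay at 0.47 to 0.75. Hepatocyte markers, such as the iron carrier gene tfa and the retinol carrier gene rbp4, were themselves uneven. Their median log2 CPM, relative to each gene's mean, was 0.25, -0.64 and -0.52 in transected and 0.91, -0.53 and 0.48 in uncut libraries 1, 2 and 3. All 16 had a negative log2 fold change, against 49.5% of all genes tested, with a median of -0.57. In every pair 8 of them were lower, against 17.0% of all genes tested, and 0 passed in edgeR or DESeq2. DESeq2 with the replicate block called 3 of the 16 lower, against 1.08% of all genes called lower in that fit: tfa (adjusted p = 0.000263), serpina1 (adjusted p = 0.0169) and rbp4 (adjusted p = 0.0326), of which serpina1 is named after its values were seen. The same fit called 0 of the 10 genes, with the lowest adjusted p at 0.0723 for apoc1 and 0.0934 for apoa2. The hepatocyte markers summed to 6329 to 11970 CPM in transected and 7895 to 18361 CPM in uncut libraries. Their part in the values of apoa1b, apoa2 and apoc1 was not tested.

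The genes of particle assembly, mttp and apobb.1, lay nearer to the enterocyte than to the hepatocyte profile. This was not particular to them, as apoa1a, apoa4a, apoa4b.1, apoea and apoeb did so too. The enterocyte profile was itself almost flat, at -0.16, 0.02 and 0.04 in transected and -0.08, 0.16 and 0.13 in uncut libraries 1, 2 and 3. Any gene with steady values lies near such a profile, so these distances do not tell in which cells a gene was expressed. mttp lay at 0.12 from the median enterocyte profile, apoeb at 0.17, and apobb.1 and apoa1a at 0.22 each. apoea lay at 0.27 and apoa4b.1 at 0.29 from it, against 0.67 for apoa1b and 0.65 for apoa2. Enterocyte markers had a median log2 fold change of -0.07, with 8 of 10 tested negative and 0 past the threshold in edgeR. DESeq2 called 1 of the 10 lower, dab2 (adjusted p = 0.0132, named after its values were seen), against 0.584% of all genes. For 2 of the 10 every transected library lay below every uncut one, against 6.38% of all genes tested. Within every pair, 4 of the 10 were lower in the transected library, against 17.0% of all genes tested. apoa4a was near neither list, at 0.75 from the hepatocyte and 0.40 from the enterocyte profile, with its lowest value of -0.93 in transected library 1.

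**Figure D4:**
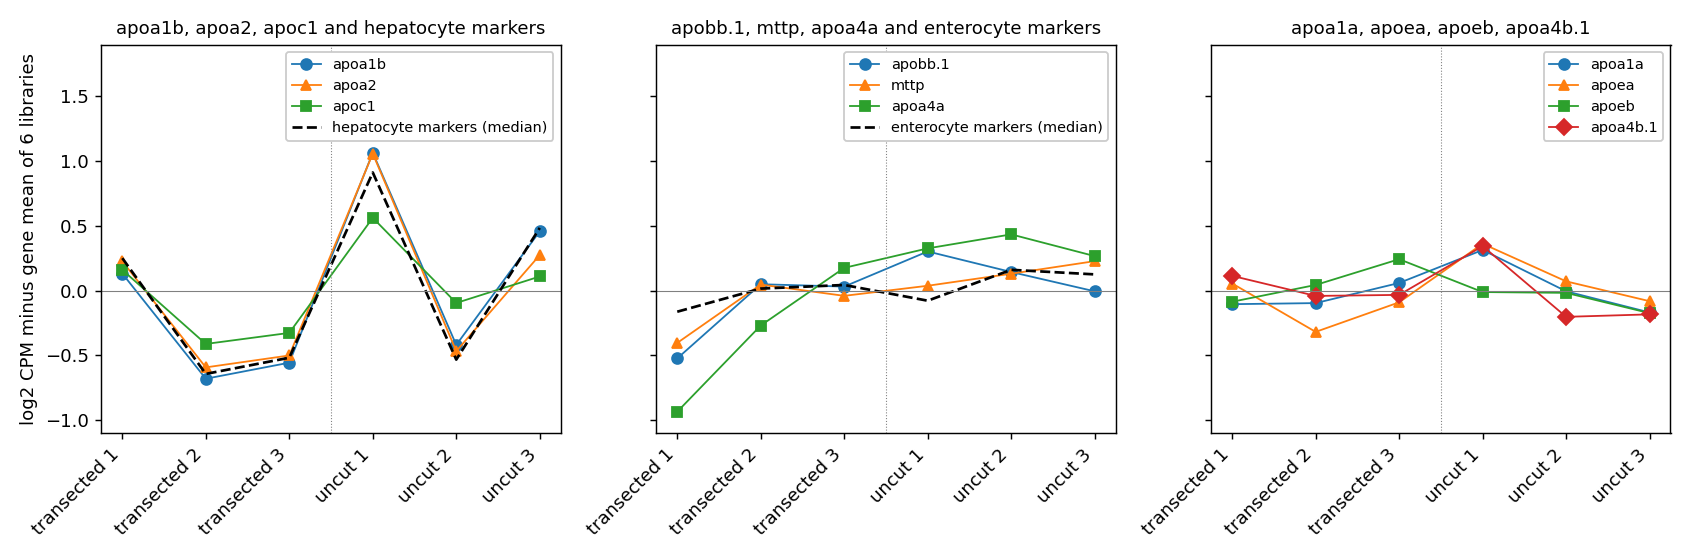
Log2 CPM relative to each gene's mean over the 6 libraries (y axis), by library (x axis, transected left, uncut right), with the median of hepatocyte markers (left panel) and of enterocyte markers (middle panel) as dashed lines. apoa1b and apoa2 run along the hepatocyte line, at root mean square differences of 0.09 and 0.11 from it, while apobb.1, mttp and apoa4a have their lowest point in transected library 1.

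Among 9815 tested genes with a mean log2 CPM of at least 1, the 3 nearest in profile were listed for each of the 10 genes, at differences of 0.0160 to 0.114. Of these 30 neighbours in profile, 1 was itself one of the 10, which was apoa1b beside apoa2. The 10 genes are few among the 9815, so this count says little about how alike they are. The genes nearest to apoa1b were c8a (0.0843), ttc36 (0.0866) and proca (0.0925), of which c8a encodes a complement component and proca the anticoagulant protein C, both plasma proteins made by the liver. For apoa2 they were sema3fa (0.0586), a gene at only 1.81 to 5.98 CPM, ttc36 (0.0883) and apoa1b (0.0963). For apobb.1 they were ivns1abpa (0.0160), alkbh1 (0.0604) and the splicing factor gene srsf6b (0.0663). Nearest to mttp were slc22a21 (0.0341), etnppl (0.0451) and abhd13 (0.0464). apoa4a lay nearest to the adiponectin receptor gene adipor2 (0.0635), kctd6b (0.0638) and hif1al (0.114), and apoc1 nearest to the growth factor receptor gene fgfr2 (0.0505), acat1 (0.0679) and pcbd1 (0.0680).

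Several of the genes are neighbours on the chromosome. In the RefSeq annotation of the assembly GRCz12tu, apoa4b.1, apoa4b.2, apoeb, apoc1, apoc4, apoa2 and apoc2 stand in this order in a run of 11 genes, of which these 7 are in the deposited table. In 6 of the 7 the highest value was in uncut library 1, which was the highest library for 25.0% of all genes tested, and in 4 (apoc1, apoc4, apoa2 and apoc2) the lowest was in transected library 2, the lowest for 11.8% of all genes. apoeb, highest in transected library 3, was the exception. Outside the run, apoa1a, apoa1b, apobb.1 and apoea also had their highest value in uncut library 1, while apoa4a and mttp did not. Of these, apoa1b and apoea also had their lowest value in transected library 2, so the pattern was not particular to the run. The size of the differences varied along the run. apoeb differed by 1.33-fold between the highest and the lowest library, apoa4b.1 by 1.46-fold, apoc1 by 1.96-fold, apoa2 by 3.14-fold and apoc4 by 4.61-fold. apoa2 thus varied far more than apoc2 beside it, which had a 1.57-fold range, with 989.8, 885 and 933 CPM in transected and 1392, 1078 and 973 CPM in uncut libraries. apoa4a and apoea are also direct neighbours, yet their profiles differed by 0.47. The same annotation shows apoa4a and apoea both overlapping si:dkey-3n22.9, apoa1a overlapping rnf214 and apoc1 overlapping LOC141378055. These 3 genes have no row in the table used here, and how reads were counted is not stated in the labels, so shared reads at these loci were not tested. The reads were aligned to danRer11, a different assembly, so the order and overlaps may differ in the annotation that was counted.

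Among other genes with apolipoprotein names, 12 of 17 looked for were found and 11 were tested. Of these, 5 were positive and 6 negative, with 0 past the threshold and a median log2 fold change of -0.07. The list went by name and includes apooa and apool, whose products are mitochondrial, so its median is not that of lipoprotein genes alone. The list summed to 8616 to 18908.5 CPM in transected and 7402 to 15920 CPM in uncut libraries. Most of this lay in genes other than those named in the rest of this paragraph. apoc4, a low-level gene of the C group, stood at 2.15, 1.26 and 1.64 CPM in transected and 5.82, 2.05 and 2.90 CPM in uncut guts. Its log2 fold change was -1.09 (SE 0.44, edgeR adjusted p = 0.626, 95% interval -2.14 to -0.04). apoc2, whose product activates lipoprotein lipase, had a log2 fold change of -0.29 (SE 0.16, edgeR adjusted p = 0.738). apodb averaged 26.1 ± 14.1 CPM in transected and 39.3 ± 16.7 CPM in uncut guts, and apooa, which encodes a mitochondrial inner membrane protein, 17.9 ± 5.83 CPM in transected and 14.3 ± 3.59 CPM in uncut guts (SD, n = 3 each).

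Genes of lipid esterification, particle assembly and secretion lay close to 0. Of 25 tested, 8 were positive and 17 negative, with 0 past the threshold and a median of -0.07. pla2g12b, which zebrafish need to load lipid onto apolipoprotein B particles, had 388, 379 and 378 CPM in transected and 518, 411 and 394 CPM in uncut guts. Every transected library lay below every uncut one, by margins small beside those within the uncut group, with a log2 fold change of -0.21 (SE 0.13, edgeR adjusted p = 0.782). The lipid droplet gene fitm2 was likewise separated at 12.04 ± 0.285 CPM in transected and 13.9 ± 0.962 CPM in uncut guts (SD, n = 3 each; edgeR adjusted p = 0.735). Such a separation held for these 2 of the 25, or 8%, close to the 6.38% of all genes tested. agpat2, an enzyme gene of triglyceride synthesis, averaged 152 ± 19.5 CPM in transected and 181 ± 11.9 CPM in uncut guts, and soat1, which esterifies cholesterol, 25.3 ± 6.13 CPM in transected and 34.2 ± 9.63 CPM in uncut guts.

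Genes of fatty acid uptake had 1 positive and 9 negative log2 fold changes, with a median of -0.12 and 0 past the threshold. The acyl-CoA synthetase gene acsl4a averaged 216 ± 7.02 CPM in transected and 249.9 ± 2.03 CPM in uncut guts (SD, n = 3 each), with no overlap, a log2 fold change of -0.21 and an edgeR adjusted p of 0.661. Every transected library lay below every uncut one for 1 of the 10 tested, against 6.38% of all genes tested. The fatty acid transporter gene slc27a2a had a log2 fold change of -0.40 (SE 0.25, edgeR adjusted p = 0.776, or 0.0491 without both replicate 1 libraries), and fabp1b.1 and cd36, which bind and take up fatty acids, -0.17 and -0.12. The fit without both replicate 1 libraries called 271 of the 11430 genes it tested.

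Receptors and remodelling enzymes, which meet the particle after secretion, included 2 genes whose groups did not overlap, abca1a and ldlra. These 2 made up 10% of the 20 tested, against 6.38% of all genes with every transected library below every uncut one. Of 20 tested, 8 were positive and 12 negative, with a median of -0.17 and 0 past the threshold in edgeR, while DESeq2 called 2 lower, against 0.584% of all genes called lower by DESeq2. DESeq2 with the replicate block called 5 lower, against 1.08% of all genes, among them abca1a, ldlra and lpl. abca1a encodes the transporter that hands cholesterol to apolipoprotein A-I. It stood at 235, 233 and 239 CPM in transected guts, against 409.6, 321 and 355 CPM in uncut guts, with no overlap and very even transected values. The log2 fold change was -0.62 (SE 0.12, edgeR adjusted p = 0.342, DESeq2 adjusted p = 0.000725). Of the 20 alternative fits 3 called it, over a range of adjusted p from 0.000725 to 1.00. The LDL receptor gene ldlra stood at 130.03, 146 and 155 CPM in transected and 181, 256 and 323 CPM in uncut guts, a log2 fold change of -0.82 (SE 0.22, edgeR adjusted p = 0.422, DESeq2 adjusted p = 0.0459). Again 3 of the 20 alternative fits called it, with adjusted p from 0.00128 to 1.00. lpl, the lipase that releases fatty acids from circulating particles, averaged 107 ± 24.7 CPM in transected and 183 ± 71.0 CPM in uncut guts, and lcat, which esterifies cholesterol on high-density lipoprotein, 32.9 ± 10.6 CPM in transected and 52.3 ± 16.3 CPM in uncut guts (SD, n = 3 each). Their edgeR adjusted p-values were 0.660 and 0.687, and with the replicate block 0.225 and 0.259 in edgeR and 0.0120 and 0.0566 in DESeq2.

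Transcription factors and nuclear receptors that act on these genes were evenly split, with 12 positive and 13 negative of 25, a median of 0.00 and 0 past the threshold in edgeR. For 3 of the 25 (nr1h5, rxraa and esrra) every transected library lay below every uncut one, or 12%, against 6.38% of all genes tested. For 1 every transected library lay above, against 7.48% of all genes tested. nr1h5, a nuclear receptor gene of the farnesoid X receptor group, had 13.8, 12.4 and 13.9 CPM in transected and 24.2, 20.1 and 30.5 CPM in uncut guts, with no overlap and a log2 fold change of -0.90 (SE 0.17, edgeR adjusted p = 0.317, DESeq2 adjusted p = 0.00276, called in 2 of the 20 alternative fits with adjusted p from 0.00109 to 1.00). The retinoid X receptor gene rxraa was also separated, at 23.9 ± 3.39 CPM in transected and 34.4 ± 1.28 CPM in uncut guts (SD, n = 3 each), with an edgeR adjusted p of 0.412, or 0.0453 without both replicate 1 libraries. That last fit called 271 of the 11430 genes it tested. esrra and srebf1, regulators of oxidative metabolism and of fatty acid synthesis, had log2 fold changes of -0.31 and -0.23 (edgeR adjusted p = 0.568 and 0.694). hnf4b and hnf4g, genes of the HNF4 family that drives apolipoprotein promoters in mammals, had log2 fold changes of 0.12 and 0.16 (edgeR adjusted p = 0.910 and 0.776). They are named after their values were seen.

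**Figure D5:**
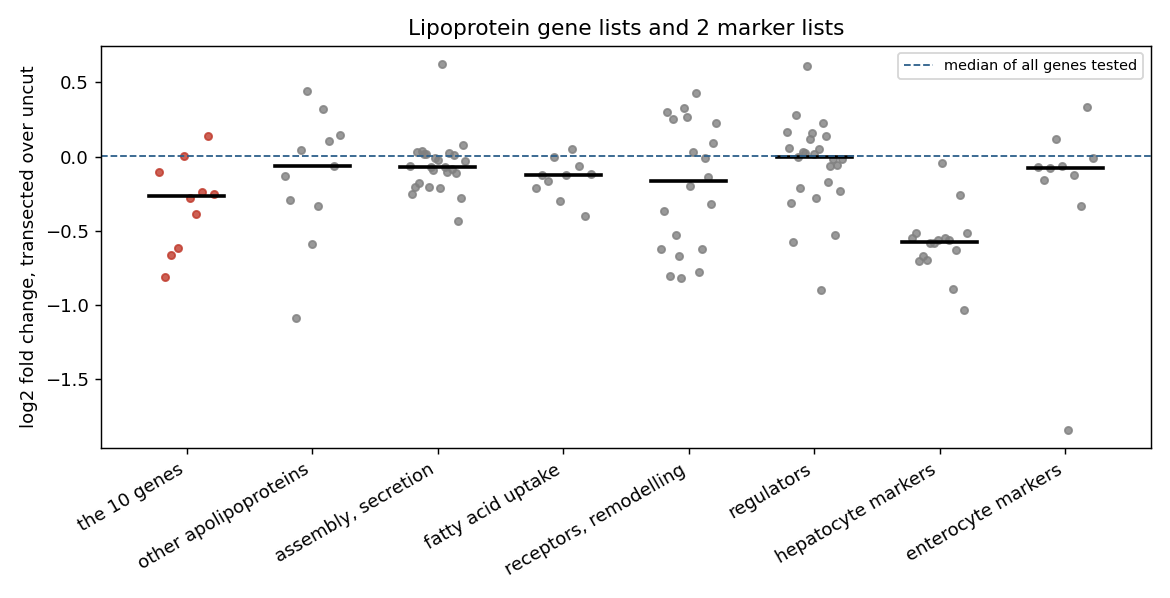
Log2 fold change, transected over uncut (y axis), of each tested gene in the 10-gene set (red) and in 5 lists of other lipoprotein genes, hepatocyte markers and enterocyte markers (grey), with a bar at each list's median and a dashed line at the median of all genes tested. The 10 genes have a median of -0.27, between those of the enterocyte markers at -0.07 and the hepatocyte markers at -0.57.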

How the data were processed

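Per the labels' protocols, RNA of pooled dissected guts was made into stranded mRNA libraries and sequenced as paired-end reads, with FastQC 0.11.8 as the read check and danRer11 as the genome for alignment. The deposited values are raw counts per gene symbol, which the authors had not normalized. Which aligner, counter and annotation made them is not given in the sources used here. A gene entered the fit if it passed filterByExpr, at a minimum count of 10 and a minimum total of 15. Libraries were TMM-scaled and fitted with the quasi-likelihood test of edgeR 4.0.16 in R 4.3.3, with a term for group alone. All tests were two-sided, with Benjamini-Hochberg adjustment over all 11466 genes tested and a threshold of 0.05. The 95% intervals of log2 fold changes come from that fit. DESeq2 1.42.0 and limma-voom (limma 3.58.1) were alternatives, and the code was tested on simulated data. Copy ratios were compared by exact permutation over libraries (scipy 1.17.1).

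Deviations from the group mean correlated at 0.450, 0.512 and 0.177 between libraries of the same replicate number (Pearson's r over 11466 genes, which are not independent). Between libraries of unlike number r was -0.527 to 0.118, the highest for transected library 2 with uncut library 3. Deviations within a group sum to 0, so a positive r for matched numbers pulls those for unlike numbers down. The numbers were taken as pairs on the evidence of the data, which is weak for number 3. The titles call the libraries biological replicates, and numbers 2 and 3 carry a second number that both groups share, while number 1 does not. What these numbers mark beyond this is not said. Chi-square per degree of freedom between libraries of a group was 26.4 to 243, so none are copies. No label says that the libraries came from separate clutches or days, so p-values measure the spread between these libraries. The 10 genes and all lists were chosen with earlier results of these data known, and list members were matched by exact symbol. Named from the lists were the 4 genes with the smallest p in each lipoprotein list, the 3 most abundant markers of a cell type, and the 3 nearest genes in profile, and those that bear on the 10 genes are printed. No set test was run. Sequences of these genes were not used here.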

Additional observations from a re-analysis of the deposited data

How the results depend on the processing

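Of the 10 genes, 0 passed an adjusted p of 0.05 in any of the 20 alternative fits, with or without the replicate block, and 7 kept their negative sign throughout. The sign turned for 3 genes near 0. apoa4b.1 was -0.0018 with DESeq2 size factors and with DESeq2, -0.0552 without transected replicate 1, and -0.0877 and -0.0807 without uncut replicates 2 and 3, against 0.208 without uncut replicate 1. Without both replicate 2 or both replicate 3 libraries it was -0.0604 and -0.0568, and apoeb was -0.0045 without both replicate 3 libraries. apoa1a was 0.0593 without both replicate 1 libraries and 0.0395 without uncut replicate 1, against -0.208 without uncut replicate 3. The cause was not tested.

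The number of genes called over the whole table depended on the tool and the libraries. It was 2 in the edgeR fit reported, 4 with the replicate block, 164 in DESeq2, 288 in DESeq2 with the replicate block, 0 in limma-voom with or without it, and 0 at an adjusted p under 0.01. Leaving out 1 library gave 0 to 5, and leaving out the replicate 1 libraries of both groups gave 271, against 0 without both replicate 2 or both replicate 3 libraries. With the replicate numbers as pairs, the mean log2 differences of the 3 copy ratios are by construction the same, at 0.64, -0.37 and -0.71 (exact sign-flip p = 0.25 each, the smallest that 3 pairs allow). Leaving out 1 library moved them to 0.43 to 1.01, -0.53 to -0.28 and -0.997 to -0.37. The median log2 fold change over all genes lay between -0.0067 and 0.0127 across the scalings tried. For the 10 genes, counting error alone would give a coefficient of variation of 0.157% to 2.93% within a group, against 5.95% to 51.5% observed between libraries.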
